A study of Mus musculus with 38 samples.

Results

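In tail skin of mice, 10 genes of amino acid shortage signalling, serine synthesis and the transsulfuration pathway were followed: Chac1, Cth, Cbs, Asns, Ddit3, Trib3, Psat1, Phgdh, Sesn2 and Slc3a2. They were taken by symbol from the 19218 genes in the deposited table of estimated counts, and all 10 passed the low-count filter in every comparison. They had been chosen by measured values of these libraries, for the difference between the effect of vitiligo induction with and without antibiotics. Values of the 4 groups behind that difference are therefore a description: where calls of the 10 genes among these groups are counted, the share of all genes called stands beside them and nothing is read from them. Among the group comparisons, only hippuric acid against vehicle tests the 10 genes, with a limit given there. Their relations to hair markers, tested further below with group means removed, rest mostly on libraries of these 4 groups. Of the 38 bulk RNA sequencing libraries, 9 came from mice with vitiligo induction (vitiligo) and 9 from wild type mice without it (no_induction). Another 6 had induction and ABX (vitiligo_ABX), an antibiotic treatment used to deplete gut microbes, and 6 were wild type with ABX alone (no_induction_ABX). Wild type mice given hippuric acid into the peritoneum gave 5 libraries (hippuric_acid), and wild type mice given the vehicle the same way gave 3 (vehicle). Hippuric acid is a glycine conjugate that appears in the body from products of gut microbes. The series asked whether gut microbes act on vitiligo skin through it. Strain, age, sex, the make-up of ABX, doses and the cohort of each group were not given in the labels, so a cohort cannot be told apart from ABX or hippuric acid. Nothing in the labels says that libraries of a group came from separate mice, so the error behind each p-value is that between libraries and may be technical.

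When an amino acid is short, the kinase GCN2 phosphorylates the initiation factor eIF2, bulk translation slows and the transcription factor ATF4 is made. ATF4 turns on amino acid transporters, enzymes that make asparagine and serine, tRNA synthetases and its own partners, Ddit3 (CHOP) and Trib3. Transsulfuration joins homocysteine to serine through Cbs and cleaves the product to cysteine through Cth, and cysteine goes into glutathione, which Chac1 degrades. Hair shafts are rich in cysteine, which cross-links their keratins and keratin-associated proteins.

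ATF4 with a C/EBP partner binds a composite element, searched here as TGATGNAA on both strands, and no other motif was searched. RefSeq promoters (GRCm38.p6) were found for 9 of the 10 genes, and Cth had no entry. The 250 bases before the start site are printed for Chac1 and Asns, which held the motif, and for Cbs, which did not, because Chac1 and Cbs had the same order of means in the first 4 groups below and Asns did not. Each runs 5′ to 3′ on the gene's own strand, with the motif in capitals.
Chac1: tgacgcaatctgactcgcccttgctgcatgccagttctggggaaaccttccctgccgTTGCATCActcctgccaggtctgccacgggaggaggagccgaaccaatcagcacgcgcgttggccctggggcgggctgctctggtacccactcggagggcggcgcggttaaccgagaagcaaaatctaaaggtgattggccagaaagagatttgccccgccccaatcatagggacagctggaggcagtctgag
Asns: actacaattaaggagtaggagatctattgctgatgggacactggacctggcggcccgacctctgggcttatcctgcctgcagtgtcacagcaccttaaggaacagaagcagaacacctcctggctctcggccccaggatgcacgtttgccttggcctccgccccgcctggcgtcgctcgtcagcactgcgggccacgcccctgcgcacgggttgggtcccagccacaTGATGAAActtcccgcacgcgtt
Cbs: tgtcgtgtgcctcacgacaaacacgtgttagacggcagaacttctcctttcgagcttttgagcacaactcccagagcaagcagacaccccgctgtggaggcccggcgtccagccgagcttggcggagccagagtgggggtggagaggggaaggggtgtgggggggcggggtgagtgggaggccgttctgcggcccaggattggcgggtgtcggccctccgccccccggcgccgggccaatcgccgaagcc
The Chac1 stretch (chr2:119350992-119351241, + strand) holds 1 match that begins at base -193 and lies on the opposite strand. The Asns stretch (chr6:7693210-7693459, - strand) holds 1 match that begins at base -23 on the same strand. The Cbs stretch is chr17:31637206-31637455 on the - strand. Neither Cbs nor the windows of Ddit3, Trib3, Psat1, Phgdh, Sesn2 and Slc3a2 hold these letters, and 3.45% of 32851 mouse promoter windows of this length do. A match is a description of letters, not a bound site.

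Library totals ran from 15.3 to 27.9 M counts. Levels are CPM, the counts of a gene scaled to a common library total with TMM factors. Per kilobase of exon, the scale on which genes can be compared, Slc3a2 and Phgdh were highest in no_induction skin, at 52.4 and 48.4 CPM per kilobase, and Trib3 and Ddit3 lowest, at 3.85 and 4.83. Skin markers were present in every library: 9 markers of the suprabasal epidermis summed to between 9937 and 41400 CPM, and 15 of the hair shaft and inner root sheath to between 1626 and 21536 CPM. Gastrointestinal and pancreatic markers summed to at least 3 CPM in 5 libraries (vitiligo 000 and 260, no_induction 011 and 012, and vehicle 001), and 3 of these (no_induction 011 and 012 and vehicle 001) were also the only libraries with 1 CPM or more of Y-linked transcripts, at 173 to 229 CPM in sum against at most 0.315 in the others. Within vitiligo_ABX, libraries 001 to 003 stood above 004 to 006 in Asns (44.5 to 47.2 against 28.3 to 35.4 CPM), Phgdh (102 to 136 against 71.2 to 74.5), Psat1 (97.5 to 130.1 against 65.2 to 78.8) and Cbs (57.4 to 66.1 against 40.1 to 48.6). Within no_induction, libraries 021 to 023 stood above the 6 others in Chac1 (61.2 to 79.6 against 20.5 to 47.3 CPM) and Sesn2 (33.7 to 38.5 against 24.8 to 32.5). They also had the 3 highest hair marker levels of that group (9.43 to 9.71 as mean log2(CPM + 1), against 8.05 to 9.21) and the 3 lowest adipocyte levels (5.07 to 5.97 against 5.98 to 6.61). The edgeR comparisons of the 10 genes that hold these libraries were refitted without each of these sets. The relations between genes and the marker and pathway lists given below were not recomputed without them.

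**Figure D1:**
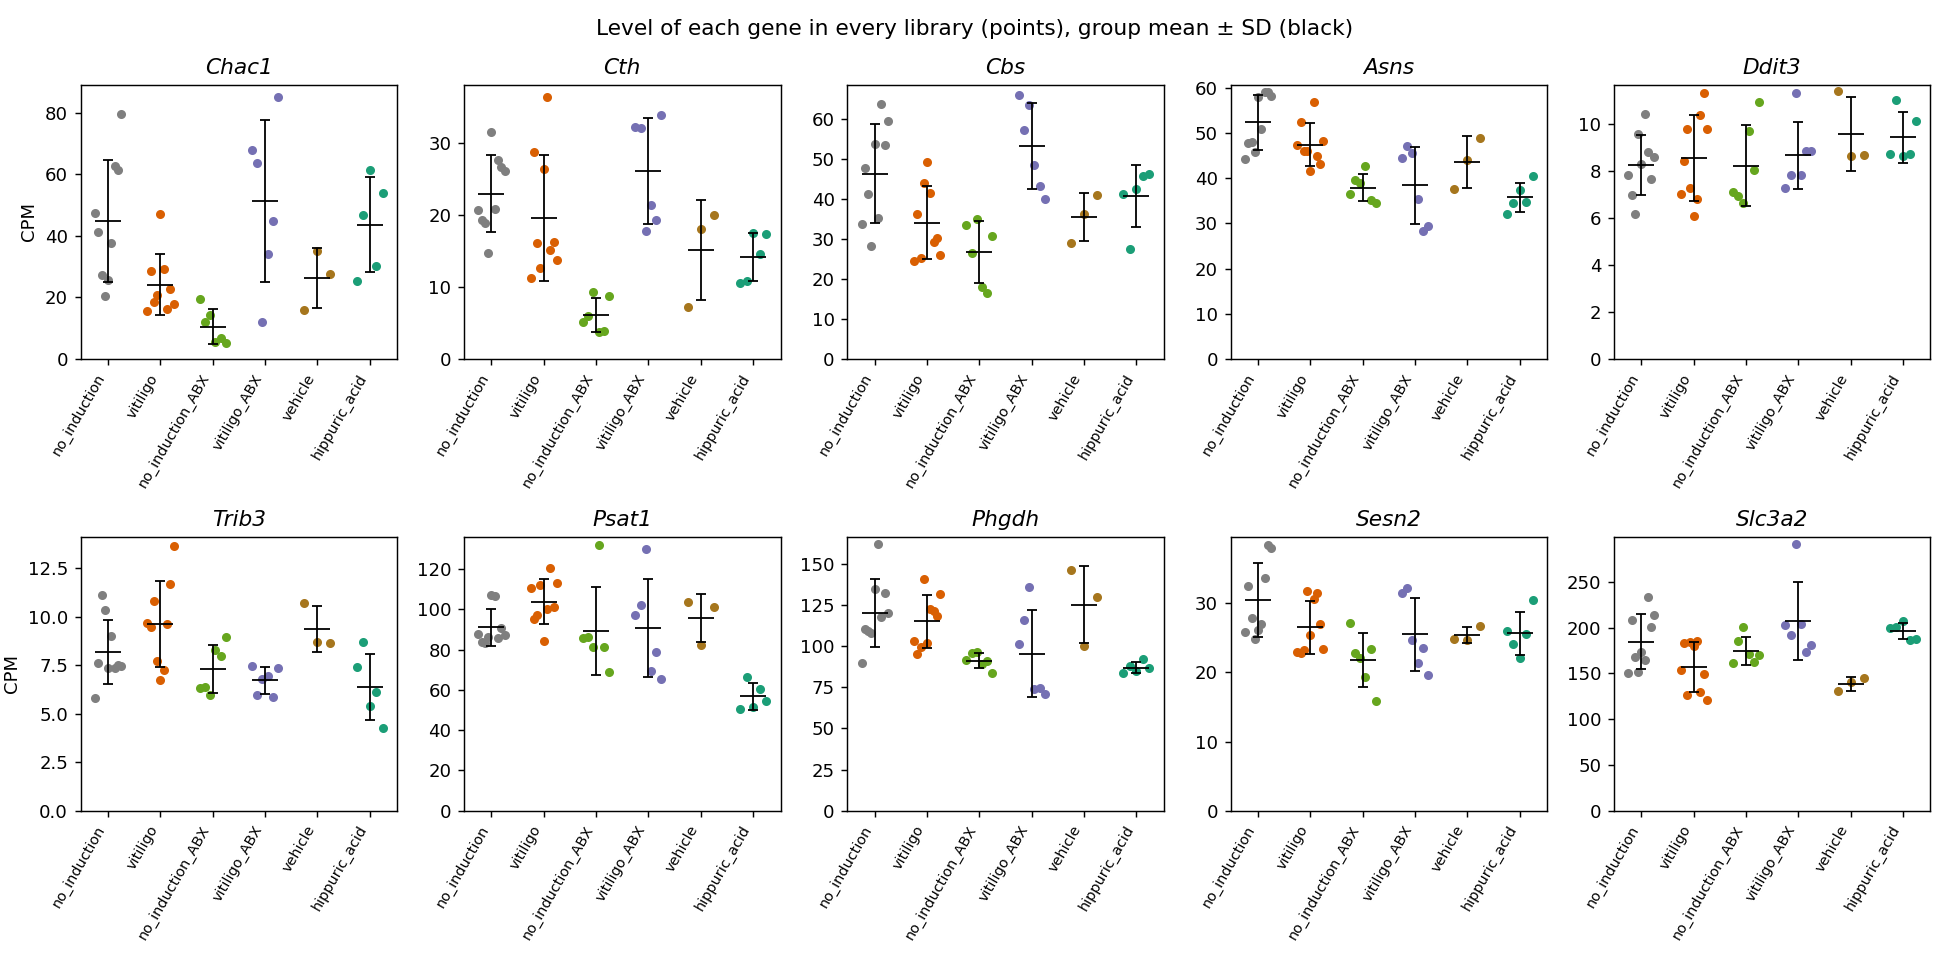
Level of each of the 10 genes in every library, in CPM on a linear axis that starts at 0. Each point is a library, and the black bar gives the group mean ± SD (9, 9, 6, 6, 3 and 5 libraries from left to right). Chac1, Cth and Cbs have their lowest group mean in no_induction_ABX and their highest in vitiligo_ABX, and Ddit3 has nearly level means.

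Chac1, which cleaves glutathione inside the cell, had the widest relative range of group means among the 10 genes. It stood at 44.7 ± 19.8 CPM (SD, n = 9) in no_induction skin (lowest 20.5, median 41.1, highest 79.6) and at 24.1 ± 9.89 (n = 9) in vitiligo skin (15.5, 20.8 and 46.99). With ABX the order was the other way round, with 10.5 ± 5.81 (n = 6) in no_induction_ABX (5.03, 9.33 and 19.5) and 51.2 ± 26.3 (n = 6) in vitiligo_ABX (12.03, 54.2 and 85.0). Without ABX 8 of 9 vitiligo libraries lay below the no_induction mean. With ABX 5 of 6 vitiligo_ABX libraries lay above every no_induction_ABX library, and the exception was vitiligo_ABX 003. All 6 no_induction_ABX libraries lay below every no_induction library.

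Cth, the lyase that releases cysteine from cystathionine, had the same order of means in these 4 groups. It was 22.9 ± 5.34 CPM (n = 9) in no_induction (lowest 14.7, median 20.8, highest 31.5) and 19.6 ± 8.73 (n = 9) in vitiligo (11.2, 16.1 and 36.4), groups that overlapped widely. In no_induction_ABX it was 6.10 ± 2.37 (n = 6; 3.76, 5.55 and 9.22), and in vitiligo_ABX 26.1 ± 7.38 (n = 6; 17.7, 26.7 and 33.9). The no_induction_ABX libraries overlapped with neither no_induction nor vitiligo_ABX. Over all genes tested, 7.16% had no overlap between no_induction_ABX and no_induction, and 3.34% none between no_induction_ABX and vitiligo_ABX.

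Cbs, which joins homocysteine and serine to cystathionine, followed with a smaller range. Its mean was 46.4 ± 12.4 CPM (n = 9) in no_induction (lowest 28.3, median 47.9, highest 63.8) and 34.1 ± 9.10 (n = 9) in vitiligo (24.5, 30.2 and 49.4). It was 26.7 ± 7.85 (n = 6) in no_induction_ABX (16.6, 28.6 and 35.0) and 53.2 ± 10.8 (n = 6) in vitiligo_ABX (40.1, 53.0 and 66.1). All 6 vitiligo_ABX libraries lay above all 6 no_induction_ABX libraries, while vitiligo and no_induction overlapped.

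Asns, Ddit3 and Trib3 did not share this order. Asns, asparagine synthetase, was 52.4 ± 6.18 CPM in no_induction and 47.4 ± 4.74 in vitiligo (n = 9 each), and 37.9 ± 3.06 in no_induction_ABX and 38.4 ± 8.46 in vitiligo_ABX (n = 6 each). Its no_induction_ABX libraries (34.6 to 42.7) lay below every no_induction library (44.4 to 59.1). Ddit3, the stress-induced transcription factor CHOP, had means between 8.24 and 8.68 CPM in the 4 groups and single libraries between 6.08 and 11.3. Trib3, a pseudokinase that holds ATF4 and AKT in check, was 8.18 ± 1.67 in no_induction and 9.64 ± 2.23 in vitiligo (n = 9 each), against 7.31 ± 1.25 in no_induction_ABX and 6.72 ± 0.683 in vitiligo_ABX (n = 6 each). All 6 vitiligo_ABX libraries lay below the vitiligo mean of Trib3, and 2 of them below every vitiligo library. None of the 10 genes separated these 2 groups in full, as 2.70% of genes tested did.

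Phgdh and Psat1 catalyse successive steps of serine synthesis. Phgdh was 120 ± 20.7 CPM in no_induction, 115 ± 15.9 in vitiligo, 91.2 ± 4.69 in no_induction_ABX and 95.5 ± 26.7 in vitiligo_ABX. Psat1 was 91.0 ± 9.27, 104 ± 11.2, 89.3 ± 21.9 and 90.6 ± 24.4 CPM in the same order. In vitiligo_ABX both genes had the split between libraries 001 to 003 and 004 to 006 given above. Sesn2, a leucine sensor that restrains mTORC1, was 30.5 ± 5.34, 26.6 ± 3.85, 21.8 ± 3.86 and 25.5 ± 5.26 CPM. Slc3a2, the heavy chain that several amino acid exchangers need to reach the cell surface, was 185 ± 29.9, 157 ± 27.0, 175 ± 15.4 and 207 ± 42.8 CPM.

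Over all 6 groups, sorted by mean, 4 gaps between neighbouring means were larger than both SDs. These were no_induction_ABX below the next group for Chac1 and for Cth, vehicle below hippuric_acid for Chac1, and hippuric_acid below the next group for Psat1. All other neighbours in the order of a gene, among them all 5 pairs for Cbs, Asns, Ddit3, Trib3, Phgdh, Sesn2 and Slc3a2, stood within the larger of their SDs.

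The difference of the induction effects (the log2 fold change with ABX minus that without) was 3.16 ± 0.51 (SE) for Chac1, 2.30 ± 0.35 for Cth and 1.42 ± 0.27 for Cbs. Without ABX the log2 fold change of vitiligo against no_induction was -0.87 ± 0.26 for Chac1, -0.20 ± 0.21 for Cth and -0.42 ± 0.17 for Cbs. With ABX the corresponding values were 2.30 ± 0.47, 2.11 ± 0.26 and 1.00 ± 0.19. For the other 7 genes the difference was 0.46 ± 0.17 (Slc3a2), 0.41 ± 0.18 (Sesn2), 0.14 ± 0.14 (Asns), 0.12 ± 0.18 (Phgdh), 0.01 ± 0.20 (Ddit3), -0.19 ± 0.18 (Psat1) and -0.38 ± 0.21 (Trib3). Without vitiligo_ABX libraries 001 to 003 the difference was 3.26 for Chac1, 2.23 for Cth and 1.15 for Cbs. In that setting it turned sign for Asns (-0.16) and Phgdh (-0.26), and moved to -0.53 for Psat1, 0.17 for Sesn2 and 0.31 for Slc3a2. Without no_induction libraries 021 to 023 it was 2.73 for Chac1, 2.17 for Cth and 1.20 for Cbs, and 0.05 for Asns and 0.25 for Sesn2. The 3 transsulfuration and glutathione genes had differences of more than 1 log2 unit in all 3 fits.

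By the call used throughout (adjusted p under 0.05 over all genes tested, edgeR), 3 of the 10 were called higher in the difference, where 11.5% of 14310 genes were called, 6.68% higher and 4.77% lower. Without ABX 1 of 10 (Chac1) was called lower in vitiligo skin, against 7.74% of genes called, 5.27% higher and 2.47% lower. With ABX 3 of 10 (Chac1, Cth and Cbs) were called higher, against 4.97% of genes called and 3.72% higher. In vitiligo skin with against without ABX, 2 were called higher (Chac1 at a log2 fold change of 1.09 and Cbs at 0.65) and 1 lower (Trib3 at -0.52), against 13.1% of genes called, 5.06% higher and 8.05% lower. In skin without induction, ABX against none, 6 were called lower, against 31.1% of genes called and 15.8% lower: Chac1 (-2.08), Cth (-1.90), Cbs (-0.78), Sesn2 (-0.47), Asns (-0.46) and Phgdh (-0.39). The counts share groups, and no_induction_ABX enters 3 of the 5. The call of Chac1 in vitiligo against no_induction was lost without any 1 of 11 of the 18 libraries, and with induction under ABX without no_induction_ABX 002. In vitiligo_ABX against vitiligo, that of Chac1 was lost without any 1 of 9 of the 15 libraries and that of Trib3 without any 1 of 6. In the difference the calls of Chac1, Cth and Cbs held without any single library, and Slc3a2 was called as well without vitiligo 001, no_induction 005 or vitiligo_ABX 005. The counts for vitiligo against no_induction and for vitiligo_ABX against vitiligo were 0 without the libraries with gastrointestinal transcripts. These 2 fits called 511 of 13811 and 961 of 13927 genes. Without no_induction libraries 021 to 023 Chac1 stood at -0.45 ± 0.24 in vitiligo against no_induction and was not called, and with ABX in skin without induction Cbs (-0.57) and Sesn2 (-0.32) were not called. Without vitiligo_ABX libraries 001 to 003, 1 gene was called higher in vitiligo_ABX against vitiligo (Chac1, 1.18) and 3 lower, Phgdh (-0.65), Asns (-0.61) and Psat1 (-0.55), while Cbs (0.37) and Trib3 (-0.53) were not called. With induction under ABX the same setting left Cbs at 0.72 ± 0.23 and not called, and Phgdh at -0.31 ± 0.07 and called lower, against 0.08 ± 0.15 with all libraries.

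**Figure D2:**
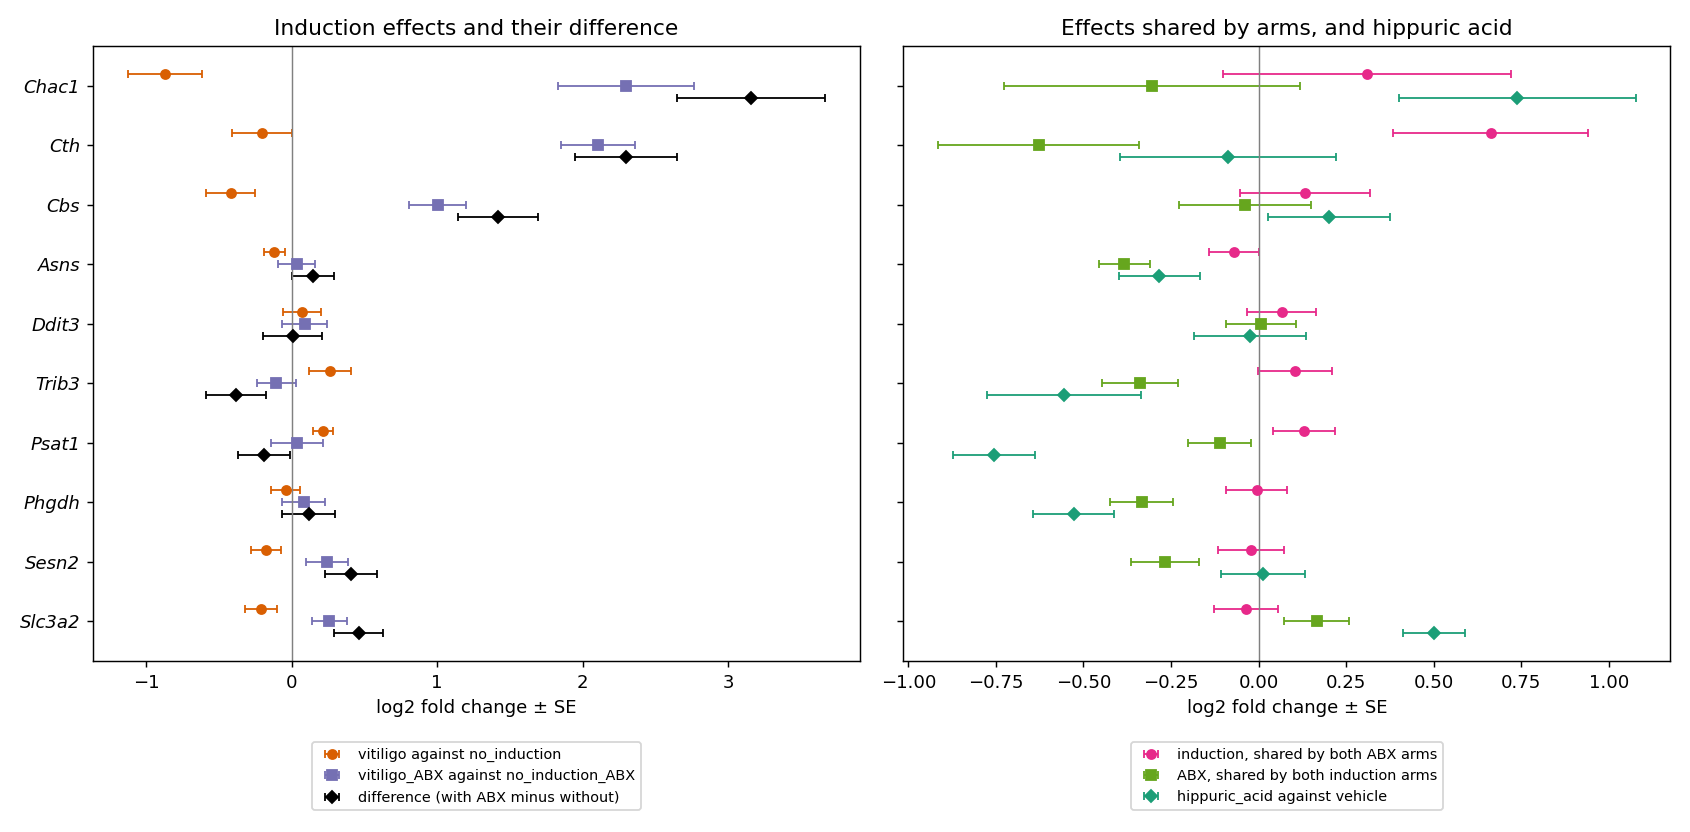
Log2 fold change ± SE of each gene (horizontal axes, with different ranges in the 2 panels). Left, vitiligo against no_induction, vitiligo_ABX against no_induction_ABX, and their difference; right, the induction and ABX effects shared by both arms, and hippuric_acid against vehicle. The 3 upper genes have differences between 1.42 and 3.16, the 7 others between -0.38 and 0.46.

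Hair follicle markers moved with Chac1, Cth and Cbs. All 15 markers of the hair shaft and inner root sheath were called higher in the difference of the induction effects, with a median log2 value of 2.17 against -0.03 over all genes tested. All 15 were lower with ABX in skin without induction (median -1.33), and 7 of 15 were higher with induction under ABX (median 1.62). Their summed level ran from 1626 to 8459 CPM in no_induction_ABX, from 10400 to 21536 in vitiligo_ABX, from 4071 to 14886 in vitiligo and from 6184 to 21292 in no_induction, and none of the 15 was at 0 in all libraries of a group. Of 10 melanocyte markers 4 were called higher in the difference as well. Without ABX, 15 of 17 adipocyte markers were higher in vitiligo than in no_induction skin (median 1.79; 3967 to 10549 CPM in sum against 1155 to 3015), with 3 of 15 hair markers and 4 of 10 melanocyte markers lower. Their part in the values of the 10 genes there was not tested beyond the covariate fits. In bulk skin, fewer hair follicle cells and less RNA of these genes per cell cannot be told apart.

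The same relation was present among libraries of one group. Over 38 libraries, with group means removed and permutation within groups, the level of each gene as log2(CPM + 1) was set against the mean level of the hair markers, in 10 relations. Chac1 had r = 0.77 and rho = 0.80, Cth 0.82 and 0.85, and Cbs 0.78 and 0.76. For each of these the permutation p was 1e-05, the smallest that 100000 permutations can give, and 3.33e-05 adjusted over the 10. The permutation takes libraries of a group as exchangeable, which the subsets of no_induction and vitiligo_ABX given above may not be. These p-values may therefore be too small. Without the 2 libraries farthest from the median, r was 0.78, 0.83 and 0.72. Within single groups of 6 or more libraries r ran from 0.70 to 0.90 for Chac1 and from 0.71 to 0.95 for Cth. For Cbs it was 0.86 in vitiligo, 0.91 in no_induction and 0.95 in no_induction_ABX, but 0.02 in vitiligo_ABX.

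The other genes had the opposite sign or weaker relations to the hair markers. Trib3 had r = -0.63 and rho = -0.67 (adjusted permutation p = 0.00015 and 0.000175) and Ddit3 r = -0.48 and rho = -0.50 (0.0126 and 0.00947). Slc3a2 had r = 0.47 and rho = 0.52 (0.00684 and 0.00426), Asns 0.35 and 0.38 (0.0331 and 0.0265) and Sesn2 0.36 and 0.35 (0.0481 and 0.0440). Psat1 (r = -0.29, rho = -0.27) and Phgdh (r = -0.08, rho = -0.02) did not pass (adjusted permutation p from 0.120 to 0.927). With the 2 farthest libraries left out, r was -0.63 for Trib3, -0.51 for Ddit3, 0.43 for Slc3a2, 0.30 for Asns, 0.40 for Sesn2, -0.41 for Psat1 and -0.14 for Phgdh. Within groups Slc3a2 ran from -0.62 in vitiligo_ABX to 0.87 in vitiligo, and Trib3 was at 0.17 in vitiligo_ABX but between -0.78 and -0.62 in the other 3 groups of 6 or more, so these 2 relations did not hold in vitiligo_ABX. Those of Asns and Sesn2 were strongest in no_induction (r = 0.73 and 0.78), where libraries 021 to 023 have the highest hair levels. In vitiligo, vitiligo_ABX and no_induction_ABX, Asns had r = 0.22, 0.14 and 0.11 (rho = -0.15 in vitiligo) and Sesn2 0.28, 0.45 and 0.15.

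**Figure D3:**
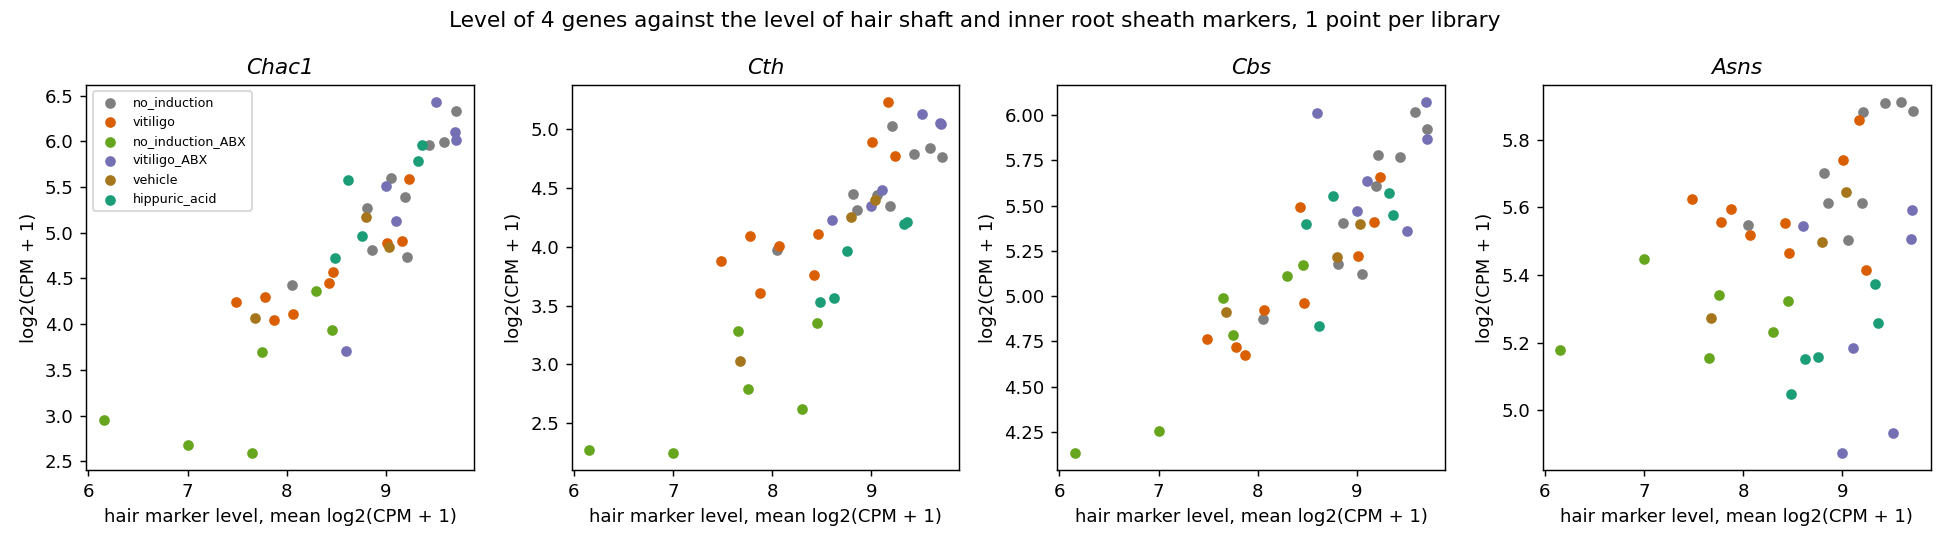
Level of Chac1, Cth, Cbs and Asns (vertical axes, log2(CPM + 1), each with its own range) against the mean level of 15 hair shaft and inner root sheath markers (horizontal axes, same scale). Each point is 1 of the 38 libraries, coloured by group. Chac1, Cth and Cbs rise along the hair level, with the no_induction_ABX libraries at the lower left, and Asns follows it weakly (r = 0.35 with group means removed).

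With the hair level as a covariate, the difference of the induction effects was 0.96 ± 0.48 for Chac1, 0.77 ± 0.30 for Cth and 0.27 ± 0.25 for Cbs, none of which was called. No gene of the 14310 was called in that fit. The covariate is itself made of genes whose level differed between the 4 groups.

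Among 13131 genes with a mean of at least 1 CPM, the 5 whose level was most like that of Chac1 (Pearson correlation of log2(CPM + 1) over 38 libraries with group means removed) were all keratin-associated proteins of the hair shaft. They were Krtap4-16 (r = 0.97), Krtap4-7 (0.95), Krtap9-1 (0.94), Krtap4-1 (0.93) and Krtap1-4 (0.93). Genes of this family have near-identical copies and can share reads, so the single values are uncertain. For Cth they were Cyria (0.89), Dsg4 (0.89), a desmosomal cadherin of the hair shaft, Krtap17-1 (0.89), Krtap24-1 (0.89) and Capn12 (0.89). For Psat1 the 5 were Mvk (0.72), an enzyme of sterol synthesis, Otulin (0.70), Eif6 (0.69), Sh3bp1 (0.68) and Trappc14 (0.68).

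An additive fit of the same 30 libraries gave the induction effect shared by both ABX arms and the ABX effect shared by both induction arms. These come from the libraries on which the genes were chosen and are likewise a description. For Chac1, Cth and Cbs, whose arms differed, a shared effect averages unlike values. For induction, edgeR called 0 of the 10 genes, with 4.61% of genes called, 3.37% higher and 1.24% lower. Cth (0.66 ± 0.28) was the 1 gene with an unadjusted p under 0.05, and DESeq2 and limma-voom each called 0. For ABX, 4 of 10 were called lower and 0 higher, against 28.7% of genes called, 13.4% higher and 15.4% lower.

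The 4 genes called lower with ABX were Asns (-0.38 ± 0.07), Trib3 (-0.34 ± 0.11), Phgdh (-0.33 ± 0.09) and Sesn2 (-0.27 ± 0.10). Asns was below the mean of its induction arm without ABX in 12 of 12 ABX libraries. The median over the 10 genes was -0.29 against 0.00 over all genes tested. The call of Sesn2 was lost when any 1 of 13 libraries was left out and without no_induction libraries 021 to 023 (-0.18), where Slc3a2 was called higher (0.24). Those of Trib3 (-0.31) and Sesn2 (-0.27) were lost without the 4 libraries with gastrointestinal transcripts. Without vitiligo_ABX libraries 001 to 003 Trib3 (-0.28) was not called and Cth (-0.87) was.

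Markers of several cell types moved with ABX. Of 17 adipocyte markers 16 were lower, summing to between 673 and 1899 CPM in the 12 ABX libraries and between 1155 and 10549 in the 18 others. With the adipocyte level as a covariate Asns stood at -0.42 ± 0.17, Phgdh at -0.06 ± 0.21 and Trib3 at 0.22 ± 0.24, none of which was called, while Sesn2 was (-0.74 ± 0.21). Chac1 and Cth, not called without the covariate, were called lower in that fit, which called 3 of the 10 genes. Of 9 suprabasal epidermis markers 7 were lower with ABX (77.8%), and of 8 T cell markers 3 (37.5%), against 28.7% of all genes called and 15.4% lower. Sebaceous gland markers (3 higher and 1 lower of 10) and fibroblast markers (2 higher and 1 lower of 8) were called in both directions. Of 5 mast cell markers 4 were higher (median 0.74), as were 3 of 5 Schwann cell markers (0.47) and 3 of 6 endothelial markers (0.36). Over 38 libraries with group means removed, Asns ran against the mast cell level (r = -0.63) and the endothelial level (r = -0.69), and Sesn2 against the endothelial level (r = -0.68), values given as a description of libraries that share their tissue make-up. Their part in the 4 values was not tested.

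The other genes of these pathways are not members of the list, and edgeR calls are given for their difference of the induction effects. The pathway lists were chosen with earlier results of these data known, so the counts are a description and not an independent test. Of 34 ATF4 target and integrated stress response genes tested, 6 were called higher and 1 lower (20.6%, against 11.5% of all genes; median 0.07 against -0.03). They included the cationic amino acid transporter Slc7a1 (0.80 ± 0.19, edgeR adjusted p = 0.00575), Aldh18a1 of proline synthesis (0.84 ± 0.16, adjusted p = 0.00142) and the tRNA exporter Xpot (0.57 ± 0.13, adjusted p = 0.00559). The 1 lower gene was the glutamine transporter Slc1a5 (-1.57 ± 0.24, adjusted p = 0.000397), which was 161 ± 43.6 CPM in vitiligo and between 39.03 and 50.5 in the 3 other groups. Atf4 itself, named for its role and outside the naming rule, differed by 0.14 ± 0.12 (adjusted p = 0.488). Its lowest and highest group means in these 4 groups were 165 ± 23.5 CPM (no_induction_ABX) and 197 ± 17.5 (no_induction).

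Transsulfuration sits between the methionine cycle and cysteine breakdown, and the genes on either side of Cbs and Cth split. Of 19 tested, 2 were called higher and 3 lower in the difference (26.3%, median -0.11). Gnmt, which spends methyl groups on glycine, rose (2.30 ± 0.46, edgeR adjusted p = 0.00214), from 7.404 ± 4.81 CPM in no_induction_ABX to 29.0 ± 5.37 in vitiligo_ABX, as against 24.5 ± 9.11 in no_induction and 19.3 ± 9.16 in vitiligo. Mat2a, which makes the methyl donor S-adenosylmethionine, rose as well (0.84 ± 0.19, adjusted p = 0.0047). Cdo1, the dioxygenase that oxidises cysteine, was lower in the difference (-2.02 ± 0.43, adjusted p = 0.00338), at 112 ± 48.2 CPM in vitiligo and 19.8 to 30.8 in the 3 other groups. Nnmt, which methylates nicotinamide, was lower too (-1.53 ± 0.32, adjusted p = 0.00288). Cdo1 is abundant in fat, and the vitiligo libraries in which it was high are those in which 15 of 17 adipocyte markers were higher. In the difference 4 of 17 were called lower, and their part in that of Cdo1 was not tested.

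Of 14 genes of glutathione synthesis and turnover, 3 were called higher and 0 lower in the difference (21.4%, median 0.14). They were Ggt1, which breaks down glutathione outside the cell (1.99 ± 0.50, edgeR adjusted p = 0.0102), the peptidase Lap3 (1.10 ± 0.29, adjusted p = 0.0125) and Slc7a11, the cystine importer (1.68 ± 0.44, adjusted p = 0.0122). Slc7a11 was 35.8 ± 18.1 CPM in no_induction_ABX and 85.3 ± 21.7 in vitiligo_ABX, and 63.5 ± 20.2 in no_induction and 46.5 ± 23.7 in vitiligo. It is 1 of 6 light chains that pair with Slc3a2, of which 2 were called higher, the other being Slc7a8 (1.33 ± 0.30, adjusted p = 0.0045).

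Among 20 cytosolic aminoacyl-tRNA synthetases, which load tRNAs with amino acids, 6 were called higher and 0 lower in the difference (30.0%, median 0.33). Cars, the synthetase for cysteine, came first by p (0.97 ± 0.17, edgeR adjusted p = 0.000869), followed by Yars for tyrosine (0.72 ± 0.15, adjusted p = 0.00361), Sars for serine (0.47 ± 0.12, adjusted p = 0.0112) and Iars for isoleucine (0.48 ± 0.13, adjusted p = 0.0148). Cars was 50.2 ± 11.2 CPM in no_induction_ABX and between 80.3 and 89.7 in the 3 other groups. Of 18 genes of serine, glycine and one-carbon metabolism 2 were called higher (11.1%), Mthfd2 (0.78 ± 0.24, adjusted p = 0.0328) and Shmt2 (0.50 ± 0.16, adjusted p = 0.0419).

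The shares called in the remaining branches lay below that of all genes. Of 20 endoplasmic reticulum chaperones and other genes of the unfolded protein response, 0 were called higher and 1 lower, Dnajc3 (-0.37 ± 0.12, edgeR adjusted p = 0.048). Of 23 genes around the sestrins, GATOR and mTORC1, edgeR called 0 in either direction (5 at an unadjusted p under 0.05). No list here was tested as a set. With the hair level as a covariate none of the genes named in these 4 paragraphs was called, in a fit that called no gene at all.

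**Figure D4:**
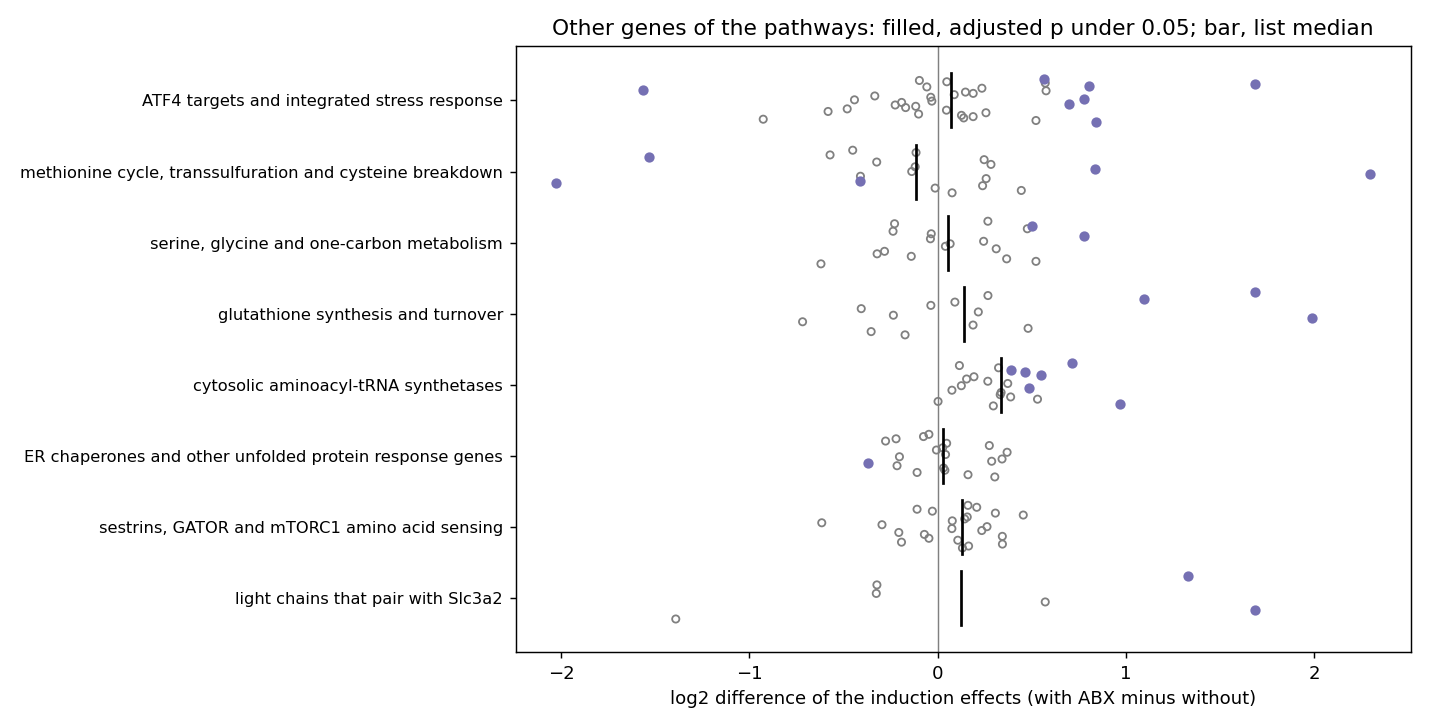
Log2 difference of the induction effects (with ABX minus without, horizontal axis) for the other genes of 8 pathway lists. Each circle is a gene, filled where the adjusted p was under 0.05, and the black bar is the median of the list, which is 0.33 for the tRNA synthetases and -0.11 for the methionine list. A gene on more than one list is drawn on each.

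Hippuric acid against vehicle was not part of the difference for which the genes were chosen, and the 10 genes were tested there on 5 and 3 libraries. The members and tests were chosen with earlier results of these data known, so full independence of this test is not established. Of the 10 genes 3 were called by edgeR, 1 higher and 2 lower, where 13.8% of 14097 genes were called (5.48% higher and 8.29% lower). The median over the 10 genes was -0.06 against 0.02 over all genes tested. The called genes were those of serine synthesis, which fell, and the transporter chain Slc3a2, which rose.

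Psat1 was 50.6, 66.3, 51.6, 60.6 and 54.6 CPM in hippuric_acid libraries 1 to 5 and 104, 82.2 and 101 in vehicle 001 to 003. It fell by 0.76 ± 0.12 on the log2 scale (edgeR adjusted p = 0.00276). Phgdh was 83.5, 87.9, 84.8, 92.1 and 86.6 CPM with hippuric acid and 146, 99.8 and 130 with vehicle. It fell by 0.53 ± 0.12 (adjusted p = 0.0143), a call that was lost without vehicle 003 (-0.51, adjusted p = 0.0511). The call of Phgdh was also lost with the replicate block given below (-0.54, adjusted p = 0.0803). Slc3a2 was 200, 201, 208, 187 and 188 CPM with hippuric acid and 130.3, 140.4 and 145 with vehicle, and rose by 0.50 ± 0.09 (adjusted p = 0.0051). The groups did not overlap for these 3 genes, which was also true of 21.5% of all genes tested.

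Chac1, Cth and Cbs were not called with hippuric acid, though Chac1 was called with the replicate block given below. Chac1 was 25.3, 46.8, 61.4, 30.2 and 54.0 CPM against 15.7, 35.1 and 27.7 with vehicle (0.74 ± 0.34, edgeR adjusted p = 0.178), so the groups overlapped. Cth differed by -0.09 ± 0.31 (adjusted p = 0.881) and Cbs by 0.20 ± 0.17 (adjusted p = 0.475). The hair markers were not called either (0 of 15 by edgeR, median 0.35), and their summed level was 8630 to 15877 CPM with hippuric acid and 5014 to 13117 with vehicle. Asns (-0.28 ± 0.12, adjusted p = 0.127) and Trib3 (-0.56 ± 0.22, adjusted p = 0.119) were below the vehicle mean in 5 of 5 libraries without passing, and Asns passed without vehicle 001 (-0.36, adjusted p = 0.0454). Ddit3 (-0.02 ± 0.16) and Sesn2 (0.01 ± 0.12) were not called.

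Other tissue markers moved with hippuric acid as well. Of 17 adipocyte markers 13 were lower, summing to 714 to 1956 CPM against 3508 to 4183, and none was at 0 in all libraries of either group. Of 10 melanocyte markers 4 were higher. Of 9 suprabasal epidermis markers 7 were lower, summing to 10375 to 13109 CPM against 28183 to 39806. With the adipocyte level as a covariate the effects were -0.52 ± 0.25 for Psat1 (edgeR adjusted p = 0.471), -0.50 ± 0.26 for Phgdh (adjusted p = 0.508) and 0.49 ± 0.19 for Slc3a2 (adjusted p = 0.371), and 3 genes in all were called in that fit. Of 7 basal epidermis markers 3 were lower. Over 38 libraries with group means removed, the suprabasal level had r = 0.60 with Phgdh, 0.51 with Psat1 and -0.24 with Slc3a2. The part of the epidermal markers in the 3 calls was not tested. Without vehicle 001, the only library of this comparison with Y-linked and gastrointestinal transcripts, all 3 calls held and Asns was called as the fourth.

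Around these 3 genes, the light chains Slc7a5 (0.62 ± 0.17, edgeR adjusted p = 0.0354) and Slc7a8 (0.78 ± 0.21, adjusted p = 0.0366) rose, 2 of 6 that pair with Slc3a2 (33.3%). The shares of each list stand against 13.8% of all genes tested. In the glutathione list 3 of 14 rose and 1 fell (28.6%): Gclc, the rate-limiting ligase of glutathione synthesis (0.59 ± 0.17, adjusted p = 0.0456), Ggt7 (1.39 ± 0.41, adjusted p = 0.0456) and Dpep1 (0.60 ± 0.15, adjusted p = 0.026) were higher. Ggct, which cleaves gamma-glutamyl amino acids, fell from 142 ± 17.7 to 53.9 ± 5.69 CPM (-1.40 ± 0.11, adjusted p = 0.000286). In the methionine and cysteine list (21.1%) 1 of 19 rose, Mat2a (0.52 ± 0.15, adjusted p = 0.0402), and 3 fell, Nnmt (-1.61 ± 0.22, adjusted p = 0.00157), Cdo1 (-1.05 ± 0.23, adjusted p = 0.016) and Csad (-0.33 ± 0.10, adjusted p = 0.0483). Of 18 serine, glycine and one-carbon genes only Aldh1l1 was called (-0.72 ± 0.20, adjusted p = 0.0343), a share of 5.56% that lies below that of all genes. Of 34 ATF4 target genes 2 rose and 2 fell (11.8%), and of 20 tRNA synthetases 1 fell (5%), Sars (-0.33 ± 0.09, adjusted p = 0.0299).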

How the data were processed

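Total RNA of mouse tail skin was extracted with Trizol and sequenced as oligo(dT)-selected libraries on a NovaSeq6000, per the labels' protocols. The authors deposited a table of estimated counts per gene, in which 16.2% of genes hold a value that is not whole. Bowtie2 2.2.8, HISAT2, StringTie 1.3.1 and DESeq2 are named, without roles, in the submitters' processing notes. The genome build, the counting tool and the use of strand are not given in the sources used here, so overlapping and antisense genes cannot be separated.

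Counts were rounded, which moved a library total by at most 22.1, and 2 of 19220 rows (1 incomplete, 1 without a symbol) were left out. Each comparison was fitted with edgeR 4.0.16 (filterByExpr, TMM, robust quasi-likelihood F test) in R 4.3.3 on its own libraries, with Benjamini-Hochberg adjustment over all genes tested and calls at an adjusted p under 0.05. The difference of induction effects is the interaction term over 30 libraries, and the common effects come from the additive fit of the same libraries. Standard errors are the absolute log2 fold change over the square root of F. The test was checked on simulated counts. Named pathway genes are the called genes of smallest p, at most 4 per list and comparison, and the 5 genes most like Chac1, Cth and Psat1. Genes on more than one list were counted in each. The members, lists and tests were chosen with earlier results of these data known. Exon lengths are from GENCODE M21. Alternatives were other size factors and filters, DESeq2 1.42.0, limma-voom (limma 3.58.1), a fit of all 38 libraries, adipocyte and hair marker levels as covariates, a replicate block, and leaving out each library. Leaving out the libraries with gastrointestinal transcripts, vitiligo_ABX libraries 001 to 003, or no_induction libraries 021 to 023, was added after seeing the data.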

Additional observations from a re-analysis of the deposited data

Results flagged for a closer look

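In 4 of the 50 sets formed by a gene and a group of 4 to 10 libraries, a single library stood apart from the others by Dixon's 95% criterion, a share near the 1 in 20 that chance gives. Chac1 was 46.99 CPM in vitiligo 063, with the next library of that group at 29.1. Cbs was 27.6 CPM in hippuric_acid 2, with the next at 41.2. Psat1 was 132 CPM in no_induction_ABX 004, with the next at 86.5. Slc3a2 was 291 CPM in vitiligo_ABX 003, with the next at 204, and that library also had the lowest Chac1 and Cth of its group.

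The effect of induction differed with and without ABX, by the interaction test in edgeR, for 19 named genes around the members. At most 4 called genes per pathway list are named, so 19 is not a count of all called. The lists were chosen with earlier results of these data known, and 11.5% of all genes tested were called. The log2 difference was positive for Gnmt (2.30), Ggt1 (1.99), Slc7a11 (1.68), Slc7a8 (1.33), Lap3 (1.10), Cars (0.97), Aldh18a1 (0.84), Mat2a (0.84), Slc7a1 (0.80), Mthfd2 (0.78), Yars (0.72), Xpot (0.57), Shmt2 (0.50), Iars (0.48) and Sars (0.47). It was negative for Cdo1 (-2.02), Slc1a5 (-1.57), Nnmt (-1.53) and Dnajc3 (-0.37). None of these 19 was called with the hair marker level as a covariate, a fit in which no gene was called.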

How the results depend on the processing

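Counts are members called of 10. Without ABX the count for induction (1) was 0 with no low-count filter and with all 38 libraries in one fit. It was also 0 with the adipocyte or the hair level as a covariate, fits that called 0 and 274 of 13826 genes. Without the libraries holding gastrointestinal transcripts (511 of 13811 genes called) or no_induction libraries 021 to 023 (268 of 13948) it was 0 too. By limma-voom, which called 5867 of 13826 genes, it was 8. Leaving out single libraries gave 0 to 2. With ABX the count for induction (3) was 0 with the hair level (1 of 13876 genes called), and 2 to 3 without single libraries. For ABX in vitiligo (3) it was 7 by limma-voom (4393 of 14014 genes called) and 5 with all 38 libraries (2811 of 14720). It was 0 with the adipocyte level (1 of 14014) and the hair level (229 of 14014). Without the libraries holding gastrointestinal transcripts (961 of 13927) it was 0 as well. Single libraries gave 1 to 4. For ABX without induction (6) it was 1 with the hair level (666 of 13971 genes called), and 6 without any single library. For hippuric acid (3) it was 0 with the adipocyte level (3 of 14097 genes called), and 2 to 4 without single libraries. For the difference of induction effects (3) it was 5 by limma-voom (4437 of 14310 genes called) and 0 with the hair level (0 of 14310). Single libraries left out gave 3 to 4. For the common induction effect (0) it was 1 with either covariate (Chac1 with the adipocyte and Cth with the hair level), and 0 without any single library. The adipocyte and hair fits called 8 and 1205 of 14310 genes. For the common ABX effect (4) it was 2 without the libraries holding gastrointestinal transcripts (3124 of 14228 genes called), and 3 to 4 without single libraries. Called directions turned with the adipocyte level for Chac1 (0.30 for induction without ABX, -1.24 for ABX in vitiligo) and Trib3 (0.11 for ABX in vitiligo, 0.22 for the common ABX effect), with the hair level for Cbs (0.12 for ABX without induction), and, for Phgdh, induction with ABX was -0.31 without vitiligo_ABX libraries 001 to 003. The causes were not tested. The covariates differ between the groups themselves, which leaves little of a group effect to be estimated. Over all settings but single libraries, 769 values for a gene kept their side of the threshold, among them uncalled values that changed sign. A call was lost by 53 and gained by 32, and 6 values with a call in either fit turned sign.

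Whether the replicate numbers shared by some groups pair the libraries cannot be settled by these values. No comparison had a correlation above 0.1 in every pair of the same number, and the values ran from -0.15 to 0.39. In some pairs, such as number 1 of induction with ABX (0.37), the library of the same number correlated best. With the replicate block the counts were 2 for induction with ABX, 0 for ABX in vitiligo, 2 for ABX without induction and 3 for hippuric acid. In that order these fits called 793 of 13876, 64 of 13965, 1436 of 13872 and 879 of 13925 genes. The 3 for hippuric acid were Psat1, Slc3a2 and Chac1 (0.75 ± 0.17, edgeR adjusted p = 0.0356). Phgdh was not called there (-0.54 ± 0.16, adjusted p = 0.0803). For the 4-group fits the block was added after seeing the data, over the 18 libraries whose number occurs in at least 2 groups. It gave 0 for the difference (Chac1 3.21, Cth 1.98 and Cbs 1.20), 0 for the common induction effect and 1 for the common ABX effect, with fewer libraries in each group, and called 0 genes in all for the difference. No paired analysis was possible for induction without ABX because these 2 groups share fewer than 2 numbers.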
